A study of Homo sapiens with 24 samples.

Results

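NFE2L2 encodes NRF2, the transcription factor of the oxidative stress response, and KEAP1 is its inhibitor. Together with 7 genes that NRF2 is known to induce (NQO1, HMOX1, TXNRD1, SRXN1, OSGIN1, PGD and ME1) they make up the 9 genes described here, of 58051 genes in the count tables. The genes were chosen by name with earlier results of these data known, and each was found by its symbol and Ensembl identifier. The study had already reported NQO1, HMOX1 and TXNRD1 as altered in all its cancers. Shares of all genes beside counts of the 9 are therefore a description and no independent test. Their expression was followed in 4 human cancer cell lines, at baseline and after treatment with Ocoxin, a liquid nutritional supplement that holds plant extracts such as green tea, licorice and cinnamon together with amino acids, vitamins and minerals.

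The cell lines were SW620 (colorectal adenocarcinoma, COAD), BxPC-3 (pancreatic adenocarcinoma, PAAD), LNCaP (prostate adenocarcinoma, PRAD) and HCC-70 (triple negative breast cancer, TNBC). Each gave 3 control and 3 Ocoxin libraries, so that 24 polyA RNA libraries were available. Treated cells received Ocoxin for 48 h in RPMI-1640 with serum reduced to 1%, diluted 700-fold in COAD and TNBC, 500-fold in PAAD and 50-fold in PRAD. The study set these dilutions from the viability of each cell line, so that dilution and cell line change together in all pairs of cell lines except COAD and TNBC. Each cancer type is represented by a single cell line, and RNA came from cells that still adhered. Nothing in the labels tells whether libraries of a group came from separate cultures, and p values then measure only the spread between these libraries, which may be technical.

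In resting cells, KEAP1 holds NRF2 in the cytoplasm and brings it to the CUL3 ubiquitin ligase, which marks it for degradation. Electrophiles and oxidants modify cysteines of KEAP1, NRF2 then accumulates, pairs with small MAF proteins in the nucleus and binds antioxidant response elements near its target genes. Much of this control acts on the NRF2 protein, which RNA counts do not measure. The products of the targets reduce quinones (NQO1), break down heme (HMOX1), reduce thioredoxin (TXNRD1) and sulfinylated peroxiredoxins (SRXN1), and generate NADPH, the electron donor of these reactions (PGD and ME1).

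The core of the antioxidant response element is TGACNNNGC, and the following stretches show where this core stands before a RefSeq start of 5 of the induced genes. The PGD and OSGIN1 stretches lie inside the interval that the count tables give for the gene. Each is written 5′ to 3′ on the strand that carries the core, with the core in capitals and 10 bases of hg38 on either side.
NQO1, chr16:69727007-69727015: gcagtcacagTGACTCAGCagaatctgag
ME1, chr6:83431180-83431188: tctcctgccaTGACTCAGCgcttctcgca
TXNRD1, chr12:104215680-104215688: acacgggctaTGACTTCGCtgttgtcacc
OSGIN1, chr16:83952683-83952691: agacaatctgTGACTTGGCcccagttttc
PGD, chr1:10398863-10398871: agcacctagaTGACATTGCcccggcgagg
The NQO1, ME1, TXNRD1 and OSGIN1 stretches lie on the strand of their gene, and the PGD stretch on the opposite one. Those of NQO1 and ME1 share the core TGACTCAGC, whose TGACTCA is also the motif of AP-1 factors.

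The positions were read with RefSeq gene starts (GRCh38.p14), which were available for 8 of the 9 genes, HMOX1 being without an entry. From 250 bases before to 50 after a start, 4687 of 35116 RefSeq promoters (13.35%) held the core on either strand, and 5 of the 11 promoters of these genes did, those of PGD, ME1, both of TXNRD1 and 1 of 2 of KEAP1. From 1000 bases before to 50 after, the shares were 33.69% of all windows and 7 of 11, with NQO1 and OSGIN1 added. A match of letters is a description and not a binding site, since no binding was measured.

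The deposited counts set 1 limit for several of these genes. Reads that fell on exons of more than 1 gene were left out by the counting, which did not use the strand. SRXN1 (ENSG00000271303, chromosome 20, 646615 to 653370) shares 2292 of its 2698 exonic bases with a readthrough gene, which left 406 bases of its own to be counted. It had 1 to 35 counts per library. NFE2L2 (ENSG00000116044, chromosome 2, 177227595 to 177392697) shared 20.9% of its exonic bases, NQO1 (ENSG00000181019, chromosome 16, 69706996 to 69726951) 17.7% and OSGIN1 (ENSG00000140961, chromosome 16, 83948282 to 83966332) 13.9%. KEAP1 (ENSG00000079999, chromosome 19), HMOX1 (ENSG00000100292, chromosome 22), TXNRD1 (ENSG00000198431, chromosome 12), PGD (ENSG00000142657, chromosome 1) and ME1 (ENSG00000065833, chromosome 6) shared none.

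Libraries held 25160757 to 34397801 counts in COAD, from 31101178 to 34231106 in PAAD, from 9063968 to 9520969 in PRAD and from 36863490 to 39009959 in TNBC. Reads of PRAD were counted apart and as single reads, and no PRAD gene exceeded 0.995 counts per exonic base, against at most 34.1 to 49 in the libraries of the other cell lines. The 9 genes reached at most 0.532 counts per exonic base in PRAD. Levels were therefore tested only among COAD, PAAD and TNBC. In RNA of whole cultures, fewer cells that express a gene and less RNA per cell cannot be told apart. Markers were detected in the cell lines that should hold them: CDX2, CDH17 and VIL1 in COAD, KRT7 and KRT19 in PAAD, KLK3 and FOLH1 in PRAD, and KRT5 and KRT14 in TNBC. KRT5, KRT7 and KRT19 were high in both PAAD and TNBC. KRT19 was also high in COAD, at 805 to 935 CPM. KLK3 was at 10.7 to 13.4 CPM in COAD, against 377 to 410 in PRAD. KRT7 was at 975 to 1091 CPM in PAAD and 564 to 689 in TNBC. KRT5 was at 2454 to 3297 CPM in PAAD and 1428 to 1655 in TNBC, and KRT19 at 1004 to 1415 and 1144 to 1582, while KRT14 was at 14.4 to 25.1 and 72.5 to 105. GPA33 stayed under 1 CPM in COAD, and in TNBC PGR was at 0 counts while ESR1 was at 5.46 to 8.25 CPM. The leukocyte gene PTPRC had at most 6 counts in any library. COL1A1 and PECAM1, also followed as genes of other cell types, were not absent. COL1A1 was at 46.45 to 65.1 CPM in PRAD and at 6.2 to 9.76 in COAD, 14 to 18.4 in PAAD and 12.7 to 16.5 in TNBC. PECAM1 was highest in PAAD, at 3.625 to 5.7 CPM.

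The main fits took each cell line alone, with all its libraries and no block for the replicate number. In these, Ocoxin raised the expression of at least 3 of the 7 induced genes in each cell line. Some alternative fits called fewer. Neither regulator passed in any cell line in the main fits. With edgeR's quasi-likelihood test and an adjusted p under 0.05, 3 of the 9 genes were upregulated in COAD (NQO1, HMOX1 and TXNRD1), where 1.47% of the 17659 genes tested were. In PAAD, 5 of 9 were upregulated (NQO1, TXNRD1, OSGIN1, PGD and ME1), against 4.72% of all genes. In PRAD, 5 of the 8 tested were (NQO1, HMOX1, TXNRD1, OSGIN1 and ME1), against 2.4%, and in TNBC 4 of 8 (NQO1, HMOX1, TXNRD1 and ME1), against 9.65%. None was downregulated, where 1.09%, 3.62%, 0.58% and 11.3% of all genes were. With the replicate number as a block, KEAP1 and HMOX1 in PAAD and PGD in TNBC passed as well (edgeR adjusted p = 0.02, 0.0028 and 0.00159).

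In the main fits, NQO1 and TXNRD1 were thus upregulated in all 4 cell lines, HMOX1 and ME1 in 3, OSGIN1 in 2 and PGD in 1. These fits leave out the pairing by replicate number that was taken to hold in PAAD, PRAD and TNBC. With the block, HMOX1 also passed in PAAD and PGD in TNBC. The tested genes had a median log2 fold change of 0.16 (COAD), 0.40 (PAAD), 0.37 (PRAD) and 0.11 (TNBC), beside -0.01, 0.00, 0.01 and 0.01 for all genes tested. The lowest Ocoxin library lay above the highest control library for 3 genes (COAD), 6 (PAAD), 7 (PRAD) and 4 (TNBC), and for 10.2%, 13.6%, 15.2% and 18.3% of all genes. No tested gene of the 9 lay wholly below its controls, which 10.4%, 13.9%, 12.4% and 19.8% of all genes did. Leaving out 1 library lowered the count to 1 in COAD (control replicate 1) and 3 in PAAD (control replicate 2). In PRAD it was 3 and 0 without Ocoxin replicate 1 and 2 and 2, 1 and 1 without control replicate 1, 2 and 3, and in TNBC 2 without Ocoxin replicate 1 or control replicate 1 or 2. The values below are counts scaled to library size with TMM (CPM), listed from replicate 1 to 3.

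**Figure D1:**
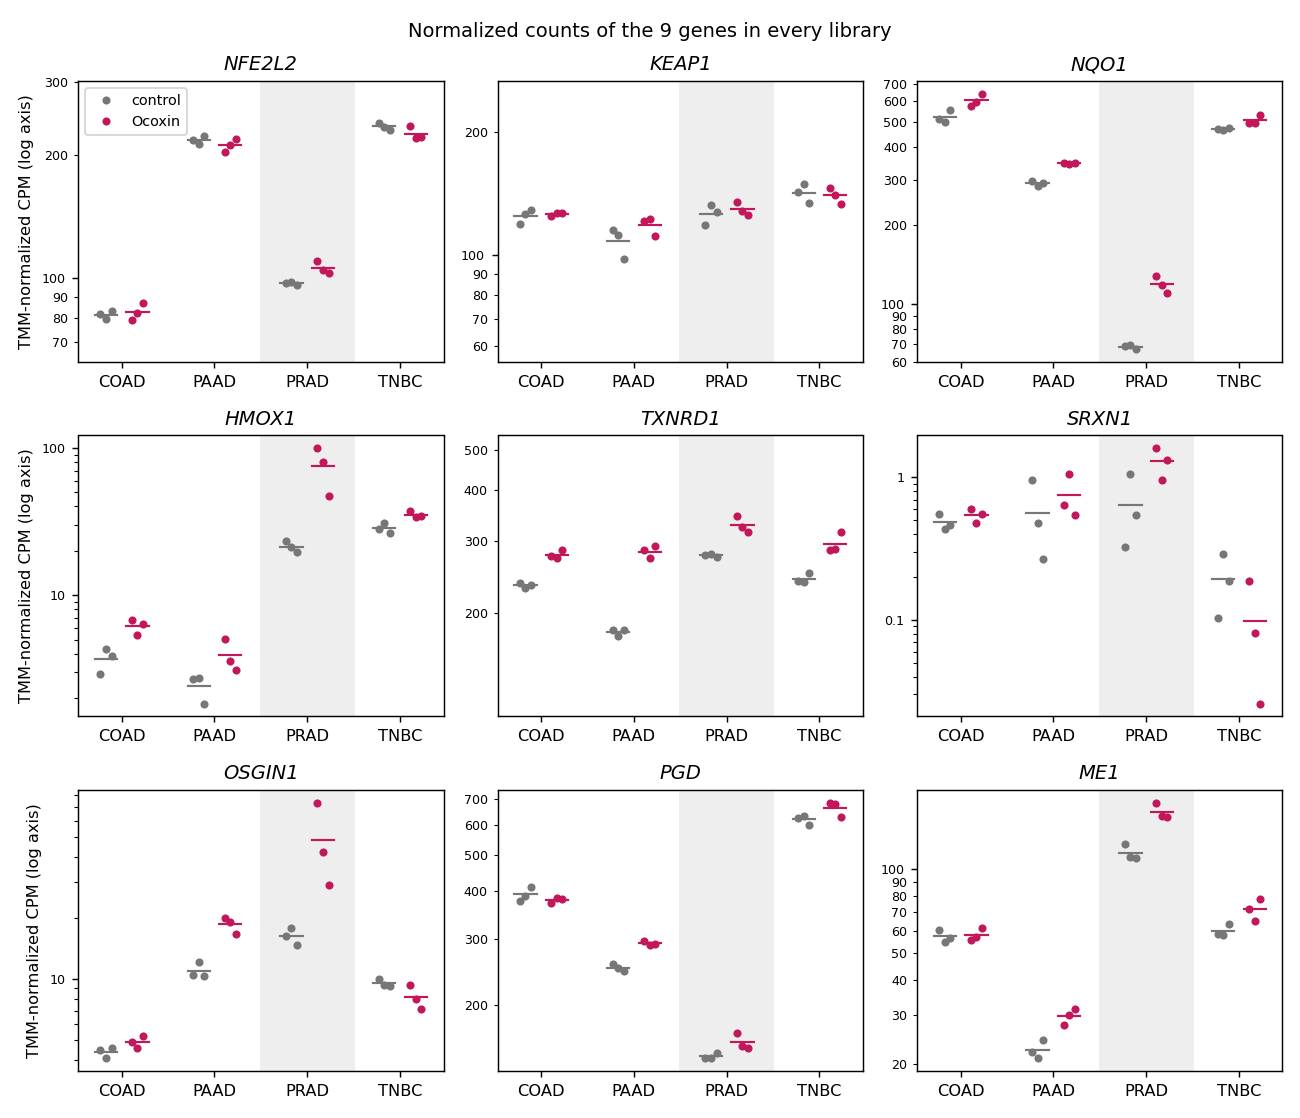
TMM-normalized CPM (log axis, its range set for each gene) of the 9 genes in each of the 24 libraries, with a line at the mean of each group of 3. The grey band marks PRAD, which was counted apart, so that its levels are not comparable with the others. NQO1 and TXNRD1 lie higher with Ocoxin in every cell line, while the PRAD Ocoxin libraries spread widely for HMOX1 (46.8 to 99.3 CPM) and OSGIN1 (28.9 to 73.6 CPM).

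The transcription factor gene NFE2L2 kept close to its control level with Ocoxin. It had 81.8, 79.4 and 83.4 CPM in COAD controls and 79, 82.4 and 86.9 with Ocoxin. In PAAD the values were 217, 212 and 222 in controls and 203, 211 and 218 with Ocoxin, and in TNBC 239, 234 and 229.9 against 234, 219.6 and 220.5. The groups overlapped in these 3 cell lines, with log2 fold changes of 0.02, -0.04 and -0.06 (edgeR adjusted p = 0.895, 0.701 and 0.306). In PRAD, the Ocoxin libraries (110.3, 105 and 103 CPM) all lay above the controls (97.3, 97.6 and 96.4). The increase of 0.13 on the log2 scale (standard error 0.042) did not pass the test, with an edgeR adjusted p of 0.143.

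KEAP1, the sensor and inhibitor of NRF2, showed log2 fold changes of 0.01 (COAD), 0.13 (PAAD), 0.04 (PRAD) and -0.02 (TNBC), with overlapping groups throughout. The edgeR adjusted p values were 0.928, 0.285, 0.741 and 0.817. Controls spanned 97.6 to 149 CPM over the 4 cell lines and Ocoxin libraries 112 to 146. In PAAD, KEAP1 had 115, 112 and 97.6 CPM in controls and 121, 122 and 112 with Ocoxin, and it passed the edgeR test with the replicate number as a block (adjusted p = 0.02, within 0.02 to 0.652 over its alternatives).

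NQO1 encodes a quinone reductase and is widely used to read NRF2 activity. In COAD it rose from 513, 499 and 554 CPM to 575, 596 and 639, in PAAD from 296, 283 and 289.8 to 348, 343 and 348, and in TNBC from 470.3, 464 and 472 to 494, 496 and 529. The groups were separate in each, but the increases were small, of 1.16-fold, 1.2-fold and 1.08-fold. In PRAD it rose 1.74-fold, from 69.1, 69.4 and 67.1 CPM to 128, 118 and 110.3. On the log2 scale these were 0.21 ± 0.0508 (standard error) for COAD, 0.26 ± 0.0502 for PAAD, 0.80 ± 0.0611 for PRAD and 0.11 ± 0.0358 for TNBC. The adjusted p values by edgeR were 0.0282, 0.005, 0.00624 and 0.0429.

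The NQO1 call in TNBC was lost without any 1 of the 6 libraries, at edgeR adjusted p values of 0.0725 to 0.122. In COAD it was lost without Ocoxin replicate 2 or 3 or control replicate 1 or 2 (edgeR adjusted p = 0.11, 0.0896, 0.173 and 0.187), and in PRAD without Ocoxin replicate 2 (0.0652).

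HMOX1, which encodes the inducible heme oxygenase, had the largest log2 fold change of the 9 genes in COAD (0.74), PRAD (1.82) and TNBC (0.31). In PRAD it rose from 23.3, 21.2 and 19.7 CPM to 99.3, 79.6 and 46.8, that is 3.52-fold, which ranked 66 among the 17070 genes tested by log2 fold change. The lowest Ocoxin library was still above all controls, but the highest was more than 2 times the lowest. In TNBC it rose from 28.2, 30.7 and 26.2 CPM to 37, 34 and 34.7, which is 1.24-fold. COAD and PAAD had low levels, with 2.92, 4.32 and 3.85 CPM in COAD controls against 6.75, 5.4 and 6.41 with Ocoxin, and 2.71, 2.73 and 1.84 in PAAD controls against 5.02, 3.58 and 3.12.

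The groups did not overlap in PAAD either, where HMOX1 had a log2 fold change of 0.69 and an edgeR adjusted p of 0.0521. The standard error of its log2 fold change was 0.161 (COAD), 0.207 (PAAD), 0.259 (PRAD) and 0.0672 (TNBC), and the edgeR adjusted p was 0.0143 for COAD, 0.0201 for PRAD and 0.00605 for TNBC. In PAAD, HMOX1 passed the edgeR test with the replicate block (adjusted p = 0.0028) or when Ocoxin replicate 3 was left out (0.0179), while its alternatives spanned 0.0028 to 0.256. Leaving out control replicate 1 ended the COAD call (edgeR adjusted p = 0.1), and the PRAD call was lost without Ocoxin replicate 2 (0.0967) or control replicate 1, 2 or 3 (0.056, 0.0861 and 0.0668).

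TXNRD1, the cytosolic thioredoxin reductase, was upregulated in all 4 cell lines. It rose from 237, 230.2 and 235 CPM to 276, 273 and 285 in COAD and from 182, 176 and 182 to 285, 272 and 292 in PAAD. In PRAD it rose from 277, 279.7 and 274 to 345, 324 and 316, and in TNBC from 239.7, 238 and 251 to 285, 287 and 316. No group overlapped another, and control libraries of a cell line differed little. The increase was 1.57-fold in PAAD and between 1.19-fold and 1.22-fold in the other cell lines. In log2 terms this was 0.25 ± 0.0457 (standard error) for COAD, 0.65 ± 0.0529 for PAAD, 0.25 ± 0.0392 for PRAD and 0.28 ± 0.0441 for TNBC. The adjusted p values by edgeR were 0.00441, 1.51e-06, 0.0257 and 0.000843. Its calls in COAD, PAAD and TNBC held in 6 of 6 fits without 1 library. The PRAD call was lost without Ocoxin replicate 1 or 2 or control replicate 1, 2 or 3, at edgeR adjusted p values of 0.0593, 0.111, 0.0601, 0.0985 and 0.0806.

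SRXN1, which encodes sulfiredoxin, had few counts in these tables, which left out reads on its shared exons. The part of this in its low counts was not tested. It had 13 to 18 counts per library (COAD), 9 to 35 (PAAD), 3 to 15 (PRAD) and 1 to 11 (TNBC), and was too low to be tested in PRAD and TNBC. In COAD its log2 fold change was 0.17 with a standard error of 0.395, and in PAAD 0.41 with a standard error of 0.432 (edgeR adjusted p = 0.884 and 0.626). In PRAD the counts were 3, 10 and 5 in controls and 15, 9 and 12 with Ocoxin. A change was not detectable at this depth.

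OSGIN1, an oxidative stress induced growth inhibitor, had the widest range of log2 fold changes among the 9 genes, from -0.22 in TNBC to 1.57 in PRAD. In PRAD it rose 2.96-fold, from 16.4, 17.9 and 14.8 CPM to 73.6, 42.4 and 28.9, a log2 fold change of 1.57 (standard error 0.322, edgeR adjusted p = 0.0482). As for HMOX1, Ocoxin replicate 1 was the highest and replicate 3 the lowest. In PAAD it rose 1.69-fold, from 10.5, 12.1 and 10.4 CPM to 20.03, 19 and 16.7, a log2 fold change of 0.76 (standard error 0.101, edgeR adjusted p = 0.000244). The PAAD call held in all 6 fits without 1 library.

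In COAD, OSGIN1 had 4.47, 4.09 and 4.6 CPM in controls and 4.88, 4.59 and 5.23 with Ocoxin, and in TNBC 10, 9.32 and 9.26 in controls and 9.31, 7.99 and 7.16 with Ocoxin. The groups overlapped in both, with log2 fold changes of 0.16 and -0.22 (edgeR adjusted p = 0.651 and 0.172). The PRAD call was lost without Ocoxin replicate 1 or 2 or control replicate 1, 2 or 3, with edgeR adjusted p values of 0.0551, 0.131, 0.095, 0.133 and 0.124.

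PGD, a pentose phosphate enzyme that yields NADPH, was upregulated in PAAD only by this test. It went from 257, 251 and 246 CPM to 296, 289 and 290.1 there, a 1.16-fold increase with separate groups (log2 fold change 0.21, standard error 0.0506, edgeR adjusted p = 0.0154). In PRAD the Ocoxin libraries (169, 156 and 154 CPM) also lay above the controls (145, 145 and 149.5), with a log2 fold change of 0.12 and an edgeR adjusted p of 0.16. In TNBC the values were 626, 633 and 599 against 686, 681 and 630.0, where the lowest Ocoxin library fell below the highest control (log2 fold change 0.10, edgeR adjusted p = 0.0804). With the replicate block, PGD passed in TNBC at an edgeR adjusted p of 0.00159, the lowest of a range up to 0.282 over its alternatives. COAD had 377, 389.6 and 412 CPM in controls and 373, 384 and 382 with Ocoxin (log2 fold change -0.05, edgeR adjusted p = 0.679). The PAAD call was lost without Ocoxin replicate 1 or 2 or control replicate 2 (edgeR adjusted p = 0.0813, 0.0758 and 0.0744), and PGD was called in TNBC without Ocoxin replicate 3 (0.00814).

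ME1, the cytosolic malic enzyme, makes NADPH from malate. It rose in PAAD from 22.1, 21 and 24.4 CPM to 27.6, 30.0 and 31.4 (1.32-fold), in PRAD from 123, 109.9 and 109.6 to 173, 155 and 154 (1.4-fold) and in TNBC from 58.6, 57.8 and 63.6 to 71.6, 65.2 and 78.1 (1.19-fold). The groups were separate in these 3 cell lines. Their log2 fold changes were 0.40, 0.49 and 0.26, each with a standard error under 0.1 (0.0833, 0.0646 and 0.0656) and an edgeR adjusted p under the threshold (0.0078, 0.019 and 0.0165). In COAD it had 60.5, 54.9 and 56.6 CPM in controls and 55.4, 56.8 and 61.2 with Ocoxin, a log2 fold change of 0.01 (edgeR adjusted p = 0.959).

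Leaving out PAAD control replicate 2 put ME1 just past the threshold in that cell line (edgeR adjusted p = 0.0536). In PRAD it was lost without Ocoxin replicate 2 or control replicate 2 or 3 (edgeR adjusted p = 0.0893, 0.0826 and 0.0655), and in TNBC without Ocoxin replicate 1 or control replicate 1 or 2 (0.055, 0.0721 and 0.0796).

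Without Ocoxin replicate 2, none of the 5 genes passed the edgeR test in PRAD, while DESeq2 called all 5 with the 6 libraries (adjusted p from 2.3e-15 for NQO1 to 0.00954 for TXNRD1). Over the 6 genes other than SRXN1 and the regulators, the median ratio to the control mean was 1.69 in PRAD Ocoxin replicate 1, 1.54 in replicate 2 and 1.48 in replicate 3. The same median was 1.11, 1.09 and 1.2 in COAD, 1.4, 1.4 and 1.34 in PAAD, and 1.14, 1.09 and 1.18 in TNBC.

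**Figure D2:**
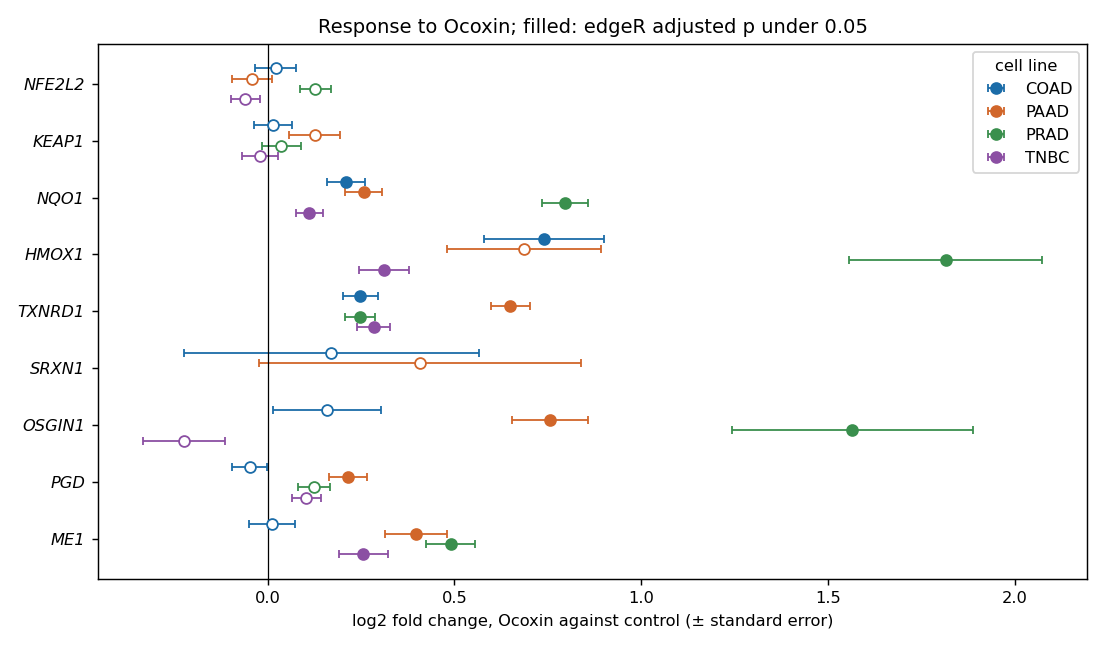
Log2 fold change of Ocoxin against control (horizontal axis, bars ± standard error) for each gene in each cell line, filled where the edgeR adjusted p was under 0.05. The 17 filled points are all to the right of 0, and the PRAD points of NQO1, HMOX1 and OSGIN1 lie farthest right, at 0.80, 1.82 and 1.57. SRXN1 was not tested in PRAD and TNBC.

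Whether a gene responded differently in a pair of cell lines was tested with an interaction term in 6 pairs. Of the 49 tests in which the gene passed the filter on low counts in both cell lines, 14 passed. SRXN1 was left aside in the pairs with PRAD or TNBC, where it did not pass the filter. COAD and TNBC are the only pair at the same dilution, and none of the 8 genes tested in both differed there (edgeR, adjusted p from 0.148 to 0.9), where 7.85% of all genes did. With the replicate block, PGD and ME1 differed (edgeR adjusted p = 0.0192 and 0.0174), although equal replicate numbers were not taken to pair the libraries in COAD. HMOX1 and OSGIN1 had the higher fold change in COAD, and PGD and ME1 in TNBC, at unadjusted edgeR p values of 0.0389, 0.0328, 0.0329 and 0.0237. The share of all genes with such unadjusted values was not taken, so these values are only a description. The 95% interval of the COAD minus TNBC difference was 0.02 to 0.84 on the log2 scale for HMOX1 and -0.44 to -0.03 for ME1, so these data do not show that both cell lines responded alike.

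In the other 5 pairs dilution and cell line cannot be told apart, and with PRAD the counting cannot either. COAD differed from PAAD in 4 genes, where 3.96% of all genes did. All 4 had a lower fold change in COAD, by -0.39 for TXNRD1, -0.59 for OSGIN1, -0.25 for PGD and -0.38 for ME1 on the log2 scale (edgeR adjusted p = 0.000827, 0.048, 0.0251 and 0.037). TXNRD1 passed under each of the 14 alternatives. OSGIN1 passed in 3 of 14, being lost without any 1 COAD library or without PAAD Ocoxin replicate 1 or 2 or control replicate 1 or 3 (edgeR adjusted p up to 0.114), and with DESeq2 size factors (0.0506). ME1 passed in 7 of 14 and was lost without COAD Ocoxin replicate 1 or 2, COAD control replicate 1, PAAD Ocoxin replicate 2 or 3, or PAAD control replicate 1 or 2 (edgeR adjusted p up to 0.104). PGD was lost without COAD control replicate 3 or PAAD Ocoxin replicate 1, at edgeR adjusted p values of 0.0534 and 0.0525.

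PAAD differed from TNBC in TXNRD1 and OSGIN1, where 4.56% of all genes did. Both had the higher fold change in PAAD, by 0.36 and 0.98 on the log2 scale (edgeR adjusted p = 0.00103 and 0.000157), under each of the 14 alternatives. With the replicate block, NQO1 also differed (0.14, edgeR adjusted p = 0.0297).

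NQO1 set PRAD apart from every other cell line, with a log2 fold change higher by 0.55 than in COAD, 0.51 than in PAAD and 0.67 than in TNBC (edgeR adjusted p = 2.81e-05, 4.27e-05 and 7.36e-07), under each of the 15 alternatives. The shares of all genes that differed were 0.832% for PRAD and COAD, 3.29% for PRAD and PAAD and 3.59% for PRAD and TNBC. HMOX1 and OSGIN1 had higher fold changes in PRAD than in TNBC, by 1.49 and 1.77 (edgeR adjusted p = 0.00293 and 0.000864), again under each alternative. TXNRD1 went the other way, with a log2 fold change 0.43 lower in PRAD than in PAAD (-0.43, edgeR adjusted p = 7.29e-05). With PRAD counts corrected for reads with the same start, this difference was smaller (-0.34, edgeR adjusted p = 0.00293). Those of NQO1 from COAD, PAAD and TNBC were then larger, at 0.70, 0.66 and 0.81.

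The remaining calls were less stable. OSGIN1 and ME1 had higher fold changes in PRAD than in COAD, by 1.38 and 0.45 (edgeR adjusted p = 0.0433 and 0.0255). OSGIN1 lost this without any 1 COAD library or any 1 PRAD control library, and ME1 without COAD Ocoxin replicate 1 or 2, COAD control replicate 1, PRAD Ocoxin replicate 1 or PRAD control replicate 2 or 3 (edgeR adjusted p up to 0.123 and 0.101). For HMOX1, the difference of PRAD from COAD (1.05, 95% interval 0.37 to 1.73) and from PAAD (1.10, 0.37 to 1.83) missed the threshold, with edgeR adjusted p values of 0.186 and 0.0989. Both passed without PRAD Ocoxin replicate 3 (edgeR adjusted p = 0.000555 and 0.000328), and the latter also without PAAD Ocoxin replicate 1 (0.0494). OSGIN1 differed between PRAD and PAAD without PRAD Ocoxin replicate 3 (edgeR adjusted p = 0.00133). With the replicate block, HMOX1 differed between PRAD and COAD (edgeR adjusted p = 0.00739), HMOX1 and OSGIN1 between PRAD and PAAD (0.00406 and 0.0131) and ME1 between PRAD and TNBC (0.0449). Neither NFE2L2 nor KEAP1 passed this test in any pair.

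At baseline, HMOX1 was 8.52-fold and 11.1-fold higher in TNBC than in COAD and PAAD, and the other genes differed by at most 3.21-fold between cell lines. Levels are given here as CPM per kb of exonic length, normalized over the 9 control libraries of COAD, PAAD and TNBC, as mean ± SD of 3 libraries. PGD was at 120.1 ± 6.67 in COAD, 90.3 ± 2.56 in PAAD and 211 ± 6.02 in TNBC, and NQO1 at 146 ± 9.6, 94.9 ± 2.61 and 146 ± 1.31. These were the highest levels of the 9 genes, while HMOX1 stood at 1.39 ± 0.272, 1.07 ± 0.231 and 11.9 ± 0.934 and OSGIN1 at 1.15 ± 0.0795, 3.39 ± 0.294 and 2.78 ± 0.12.

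Control levels differed for 7 of the 9 genes between COAD and PAAD, 8 between COAD and TNBC and 8 between PAAD and TNBC (edgeR). Most genes differed at baseline, 78.6%, 82.8% and 77.1% of all genes tested in these pairs, so that the counts say nothing particular about the 9. The widest gap was that of HMOX1, which was 8.52-fold higher in TNBC than in COAD and 11.1-fold higher than in PAAD (edgeR adjusted p = 3.86e-15 and 2.07e-15). For HMOX1, 21.1% and 14.4% of all genes had a larger difference between these cell lines. NFE2L2 was lowest in COAD, 3.13-fold below PAAD and 3.21-fold below TNBC (edgeR adjusted p = 9.76e-18 and 5.85e-18), while PAAD and TNBC were not told apart (38.7 ± 0.82 and 39.6 ± 0.775, edgeR adjusted p = 0.531).

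NQO1 was level between COAD and TNBC (log2 difference -0.002, edgeR adjusted p = 0.977) and 1.53-fold lower in PAAD than in each. ME1 was lowest in PAAD (7.11 ± 0.523), 2.17-fold below COAD and 2.53-fold below TNBC. PGD in TNBC was 1.76-fold above COAD and 2.34-fold above PAAD, and OSGIN1 in COAD was 2.95-fold below PAAD and 2.42-fold below TNBC. TXNRD1 varied little, from 28.6 ± 0.593 in PAAD over 31.6 ± 0.642 in COAD to 36.6 ± 1.05 in TNBC, yet all 3 steps passed the edgeR test (adjusted p = 0.0134, 0.000496 and 1.24e-06). KEAP1 was at 30.0 ± 1.46 in COAD and 30.7 ± 2.83 in PAAD (edgeR adjusted p = 0.676) and 1.24-fold to 1.27-fold higher in TNBC. SRXN1 rested on a few counts per library, and its levels differed between TNBC and the others only with that reserve.

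PRAD levels, normalized over its own libraries, are given beside these without a test. They were 49.4 for PGD, 41.3 for TXNRD1, 33.9 for ME1, 33.5 for KEAP1, 21.1 for NQO1, 16.2 for NFE2L2, 8.89 for HMOX1 and 4.72 for OSGIN1 in CPM per kb. Within PRAD, TXNRD1 and ME1 thus stood above NQO1, whereas NQO1 stood above both in the other cell lines. 

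**Figure D3:**
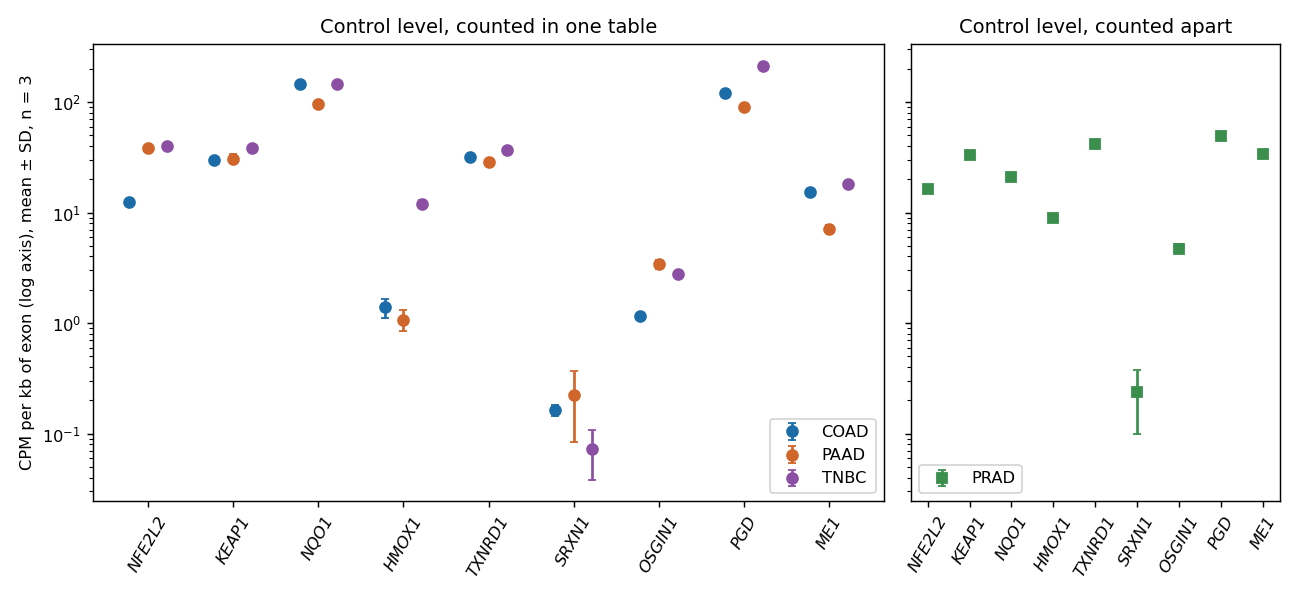
Control level of each gene in CPM per kb of exon (log axis), as mean ± SD of 3 control libraries, for COAD, PAAD and TNBC (left, counted together) and PRAD (right, counted apart). HMOX1 in TNBC (11.9) stands well above COAD (1.39) and PAAD (1.07), and NFE2L2 in COAD (12.4) below PAAD (38.7) and TNBC (39.6).

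Other genes of the pathway were followed as 5 lists with 52 genes in all. In PRAD and PAAD every called gene of the lists rose, with 6 of 46 tested genes in PRAD and 12 of 51 in PAAD. In COAD 5 rose and 1 fell of 51, and in TNBC 14 rose and 8 fell of 51. The shares of all genes called in either direction were 2.55% (COAD), 8.33% (PAAD), 2.98% (PRAD) and 21% (TNBC). Increases made up 1.47%, 4.72%, 2.4% and 9.65% of all genes, and decreases 1.09%, 3.62%, 0.58% and 11.3%. Over all genes in PRAD, 409 rose and 99 fell, so most calls there were increases with or without the lists. The replicate block raised the counts of called genes to 25 (PAAD), 14 (PRAD) and 34 (TNBC). The share of all genes called with the block was not taken, so these counts cannot be set against the shares above. Without 1 library they fell to 1 in COAD (Ocoxin replicate 2 or control replicate 2; 2 without control replicate 1) and to 6 in PAAD (Ocoxin replicate 1; 7 without Ocoxin or control replicate 2). In PRAD they fell to 0 without Ocoxin replicate 2 or control replicate 2, and to 2, 3 and 1 without Ocoxin replicate 1, control replicate 1 and control replicate 3. The median log2 fold change over these lists was 0.03 (COAD), 0.01 (PAAD), 0.06 (PRAD) and 0.09 (TNBC).

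Among genes of glutathione synthesis and conjugation, 2 of 13 tested rose in COAD, 4 of 14 in PAAD, 4 of 10 in PRAD and 7 of 13 in TNBC, and none fell. Of all genes tested, 1.47%, 4.72%, 2.4% and 9.65% rose and 1.09%, 3.62%, 0.58% and 11.3% fell. SLC7A11, the cystine importer, rose in 3 cell lines: from 188, 209 and 228 CPM to 327, 307 and 310.2 in PAAD, from 290.5, 282 and 213 to 477, 446 and 402 in PRAD, and from 47.8, 44.2 and 42.2 to 70.6, 67.8 and 79 in TNBC. The log2 fold changes were 0.60, 0.75 and 0.70 (edgeR adjusted p = 3.35e-05, 0.0249 and 2.87e-05). GCLM, the modifier subunit of glutamate-cysteine ligase, rose 1.92-fold in PRAD, from 87.8, 79.7 and 81.5 CPM to 187, 155 and 136, and 1.19-fold in TNBC (edgeR adjusted p = 0.0147 and 0.00743). GCLC, the catalytic subunit, rose 1.21-fold in PAAD and 1.18-fold in TNBC (edgeR adjusted p = 0.00729 and 0.0016).

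EPHX1, an epoxide hydrolase, rose 1.18-fold in COAD and 1.35-fold in TNBC, and NQO2, the relative of NQO1, 1.6-fold in PRAD and 1.13-fold in TNBC (edgeR adjusted p at most 0.0431). UGDH, which makes UDP-glucuronate, rose in PRAD (1.39-fold) and TNBC (1.13-fold) and the exporter gene ABCC3 in PAAD (1.3-fold), by the same test. The aldo-keto reductase AKR1B10 rose 1.83-fold in TNBC, from 13, 11.5 and 15.2 CPM to 21.3, 20.4 and 31.1 (edgeR adjusted p = 0.0191). In PRAD, AKR1B10 was too low to be tested, with 1, 1 and 0 counts in controls and 52, 12 and 7 with Ocoxin. Replicate 1 was again the highest there and replicate 3 the lowest. AKR1C1 rose in COAD (1.49-fold) and PAAD (1.2-fold). It did not pass in PRAD or TNBC, with log2 fold changes of 3.915 and 0.54 (edgeR adjusted p = 0.0817 and 0.142), though the groups were separate in both. In PRAD it had 0.327, 0.744 and 0.656 CPM in controls and 19.7, 4.93 and 1.99 with Ocoxin. AKR1C1 shares reads with near-identical paralogs, and its values are uncertain.

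Of the NADPH supply list, 3 of 8 tested genes rose in PAAD, 1 of 7 in PRAD and 4 of 9 in TNBC. Of all genes tested, 4.72%, 2.4% and 9.65% rose in these cell lines. TKT, the transketolase, rose in PAAD and TNBC (1.17-fold and 1.18-fold), ME3, a mitochondrial malic enzyme, in PAAD (1.24-fold), and IDH1 and the transhydrogenase NNT in TNBC (1.1-fold and 1.12-fold), all by edgeR. In COAD none rose, where 1.47% of all genes did, and MTHFD1, a folate enzyme, fell to 0.876 of its control level (edgeR adjusted p = 0.032). ME2 had 0 counts in all 6 PAAD libraries and ME3 0 counts in all 6 PRAD libraries, so neither could be tested there.

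In TNBC, where TXNRD1 rose, 5 of the 12 genes of the thioredoxin list fell: TXN, the substrate of TXNRD1, and the peroxiredoxins PRDX1, PRDX2, PRDX4 and PRDX5, to between 0.803 and 0.89 of their control levels (edgeR adjusted p at most 0.0133). PRDX5 fell from 281, 299 and 287 CPM to 237, 235 and 231, and TXN from 124, 128 and 129.9 to 116, 112 and 114. TXNIP, which binds and inhibits thioredoxin, rose 1.67-fold in TNBC, from 140.0, 145 and 154 CPM to 235, 229 and 269 (edgeR adjusted p = 2.59e-05). In the other cell lines a single gene of the list was called, the glutaredoxin gene GLRX in PAAD (1.27-fold, edgeR adjusted p = 0.0256). In TNBC 11.3% of all genes fell.

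In the heme and ferritin list, which holds the neighbours of HMOX1 in heme and iron handling, FTL, the ferritin light chain, rose in COAD (1.14-fold) and FTH1, the heavy chain, in PAAD (1.37-fold), with edgeR adjusted p values of 0.0475 and 0.00512. SLC48A1, a heme transporter, rose in PAAD (1.24-fold) and PRAD (1.41-fold), both with separate groups (edgeR adjusted p = 0.0278 and 0.0257). In TNBC FECH, the last enzyme of heme synthesis, rose 1.12-fold and BLVRB, a biliverdin reductase, fell to 0.744 of its control level (edgeR adjusted p = 0.0124 and 9.53e-05). The order of the Ocoxin libraries seen for HMOX1 in PRAD held for SLC48A1 as well, at 90.2, 78.6 and 76.5 CPM.

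Among the other regulators, SQSTM1, whose product p62 binds KEAP1, rose in COAD (1.17-fold) and PAAD (1.22-fold), with edgeR adjusted p values of 0.0149 and 0.00969. Of the small MAF genes, MAFG rose in PAAD (1.25-fold), while MAFF rose in COAD from 11, 9.55 and 11.2 CPM to 13.9, 15.3 and 15.7 and fell in TNBC from 6.26, 6.98 and 5.2 to 3.85, 3.44 and 2.71 (edgeR adjusted p = 0.00452, 0.00847 and 0.00213). In TNBC NFE2L1, the relative of NFE2L2, rose 1.09-fold and RBX1, the ring subunit of the CUL3 ligase, fell to 0.755 (edgeR adjusted p = 0.0179 and 0.000206). In PRAD none of the 9 was called by edgeR. An unadjusted p under 0.05 was seen for 3 of them and for 3547 of all 17070 genes tested, so this count says nothing particular about the list.

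**Figure D4:**
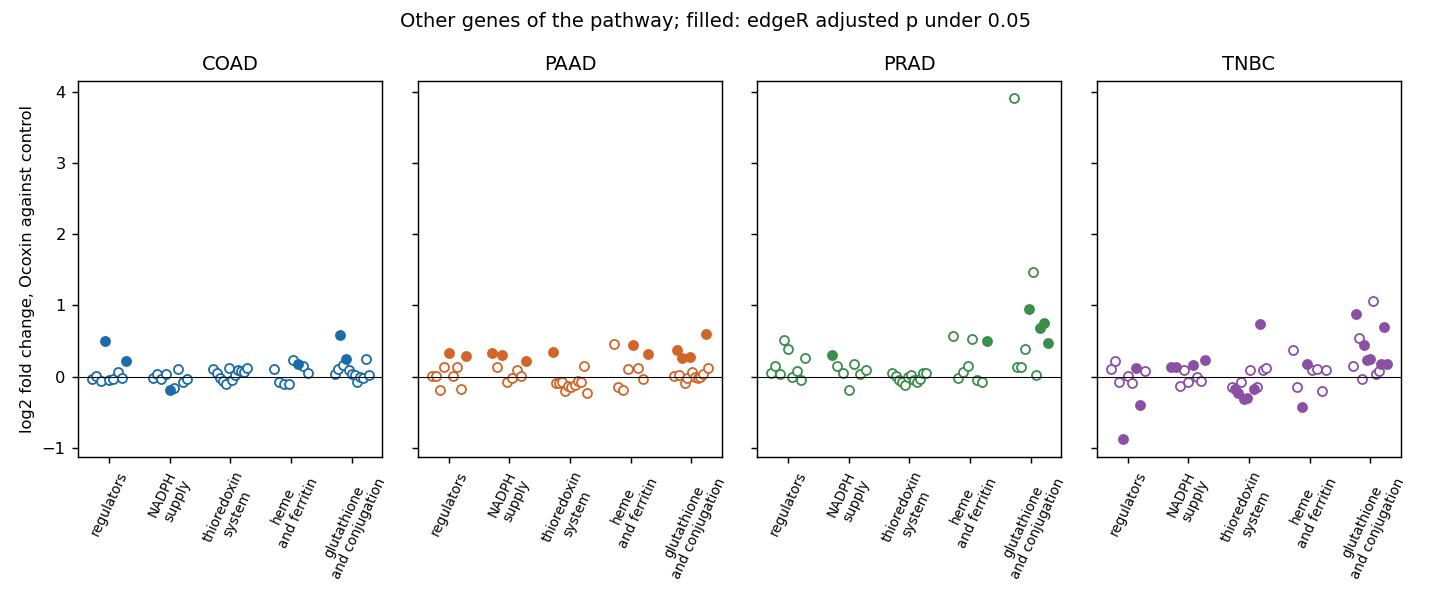
Log2 fold change of Ocoxin against control for each tested gene of the 5 other lists (1 point per gene, spread sideways for legibility) in each cell line, filled where the edgeR adjusted p was under 0.05. Filled points lie above 0 in PAAD (12) and PRAD (6), whereas TNBC has 14 above and 8 below, 5 of the latter in the thioredoxin list.

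Genes other than the 9 were ranked by how closely they matched NQO1, HMOX1, TXNRD1, OSGIN1, PGD and ME1, each taken alone. The measure was the Euclidean distance over 4 log2 fold changes (COAD, PAAD, PRAD and TNBC). It was taken among 690 genes tested in all 4 cell lines and altered in at least 2. The nearest to NQO1 was DNAJB9, at a distance of 0.139, with changes of 0.11, 0.27, 0.71 and 0.09. The nearest to TXNRD1 was ARHGEF4 (0.243), to OSGIN1 CEMIP (0.307), to PGD EXOC3 (0.0656) and to ME1 UNKL (0.116). HMOX1 had no close match, the nearest being FAM167A at 0.495. GCLC was the third nearest to ME1, at 0.181. These are distances between 4 values each, given as a description.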

How the data were processed

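RNA of 24 libraries was sequenced by the authors (TruSeq Stranded mRNA), trimmed, aligned to hg38 with STAR and freed of duplicates, and exonic reads were counted per gene with featureCounts 2.0.3. The deposited values are these raw counts, not normalized, with the 6 libraries of PRAD in a file of their own and the other 18 together. Per the file headers, paired reads were declared only in the latter, and both runs ignored the strand and counted the reads of a pair separately. The labels give the Ocoxin dilution for controls too, and control (C) and Ocoxin (O) were taken from the letters in the titles. Of 58051 gene identifiers, 56948 matched a symbol.

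Counts were analysed with R 4.3.3 and edgeR 4.0.16 (filterByExpr, TMM, robust quasi-likelihood fit, two-sided F-test, Benjamini-Hochberg adjustment over all genes tested). Each cell line was fitted alone, control levels were fitted over the 9 control libraries of COAD, PAAD and TNBC, and responses were compared with an interaction term over 18 libraries, or all 24 for pairs with PRAD. The threshold for an altered gene was an adjusted p under 0.05 whatever its fold change. The code was tested on simulated data. Depth sets the precision of low genes, and the reads carried no molecular identifiers. The tests took in counting error and the spread between the libraries of a group, which may be technical.

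The 9 genes were described in every cell line, and of the other lists genes with an adjusted p under 0.05 could be named. Some genes of the lists and some markers are not reported here. The 9 genes, the lists and the tests were chosen with earlier results of these data known. Alternatives were DESeq2 1.42.0, its size factors in edgeR, no filter on low counts or at least 10 counts in every library, all 24 libraries in 1 fit, halved counts of the paired libraries, PRAD counts corrected for reads with the same start, each library's trend with gene length and GC content removed, an adjusted p under 0.01, the replicate number as a block, and each library left out in turn.

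Whether equal replicate numbers pair the libraries was checked with the correlation of their deviations from the group means over genes with a mean of at least 10 CPM. For replicates 1, 2 and 3 it was 0.405, 0.314 and 0.615 in PAAD, 0.296, 0.176 and 0.605 in PRAD and 0.285, 0.32 and 0.629 in TNBC, so that the numbers were taken to pair the libraries there. The main fits of all cell lines nevertheless took no block and so leave this pairing out. Fits with the block are given as an alternative. In COAD it was 0.399, 0.0813 and 0.503, and the libraries were not taken as paired. Over all genes tested, low counts included, at least 1 of the 3 correlations was under 0.1 in each cell line.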

Additional observations from a re-analysis of the deposited data

Results flagged for a closer look

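The response to Ocoxin differed between cell lines in 14 of 49 interaction tests (edgeR, adjusted p under 0.05), which concern 6 of the 9 genes. The log2 fold change of TXNRD1 in COAD minus that in PAAD was -0.39, that of OSGIN1 -0.59, that of PGD -0.25 and that of ME1 -0.38. PAAD minus TNBC was 0.36 for TXNRD1 and 0.98 for OSGIN1. PRAD minus COAD was 0.55 for NQO1, 1.38 for OSGIN1 and 0.45 for ME1, PRAD minus PAAD was 0.51 for NQO1 and -0.43 for TXNRD1, and PRAD minus TNBC was 0.67 for NQO1, 1.49 for HMOX1 and 1.77 for OSGIN1. The dilution differed in each of these pairs, so that cell line and dilution cannot be told apart.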

How the results depend on the processing

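The replicate number as a block moved the counts of other pathway genes called from 6 to 10 in COAD, 12 to 25 in PAAD, 6 to 14 in PRAD and 22 to 34 in TNBC. For the responses that differed, it moved them from 0 to 2 for COAD and TNBC (PGD and ME1) from 2 to 4 for PRAD and PAAD (HMOX1 and OSGIN1), and from 3 to 4 for PRAD and COAD (HMOX1), 2 to 3 for PAAD and TNBC (NQO1) and 3 to 4 for PRAD and TNBC (ME1). Among the 9 genes it added the calls of HMOX1 and KEAP1 in PAAD and PGD in TNBC, and lost none. The shares of all genes called with the block were not taken, so these counts are only a description.

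An adjusted p under 0.01 left 1 of the 9 genes in COAD, 1 in PRAD and 2 in TNBC, and 2, 0 and 14 of the other pathway genes. Without the filter on low counts 3 of the 9 were called in PRAD, where HMOX1 and OSGIN1 were lost (edgeR adjusted p = 0.104 and 0.222), and OSGIN1 was also lost with at least 10 counts in every library (0.0512). With all 24 libraries in 1 fit, 2 were called in TNBC, where NQO1 and HMOX1 were lost (edgeR adjusted p = 0.201 and 0.334), and HMOX1 was lost in COAD (0.182). HMOX1 in PAAD was gained without the filter (edgeR adjusted p = 0.00463) and with the trend removed (0.0192), as was PGD in TNBC with the latter (0.033). The other pathway genes called in PRAD were 12 with DESeq2, 14 with all 24 libraries in 1 fit and 11 after removal of the trend with gene length and GC content, which left 3 in COAD. The causes were not tested, and the shares of all genes called in these alternatives were not taken.

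With 1 library left out, 1 to 3 of the 9 genes were called in COAD, 3 to 6 in PAAD, 0 to 5 in PRAD and 2 to 4 in TNBC, and 1 to 5, 6 to 12, 0 to 9 and 16 to 24 of the other pathway genes. Control levels differed for 6 to 7 (COAD and PAAD), 7 to 8 (COAD and TNBC) and 7 to 8 genes (PAAD and TNBC). Responses differed for 2 to 3 genes (COAD and PAAD), 1 to 4 (PRAD and COAD) and 2 to 4 (PRAD and PAAD), and for 0, 2 and 3 in each fit for COAD and TNBC, PAAD and TNBC, and PRAD and TNBC.

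The sign turned only for values that were not called. With the trend removed, KEAP1 was at -0.04229 in COAD, -0.04376 in PRAD and 0.001228 in TNBC, and ME1 at -0.01581 in COAD. With 1 library left out, values in COAD ranged from -0.004468 to 0.06197 for NFE2L2, from -0.01271 to 0.0453 for KEAP1 and from -0.02112 to 0.05567 for ME1, and values of KEAP1 from -0.008142 to 0.06061 in PRAD and from -0.06056 to 0.01854 in TNBC.

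With 3 libraries per group, small changes such as that of NQO1 in TNBC lie at the limit of detection, and SRXN1 is limited by its few counts.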

Other observations

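ME2, the mitochondrial malic enzyme, had 0 counts in all 6 PAAD libraries and 953 to 1362 in COAD, 974 to 1063 in PRAD and 1698 to 2126 in TNBC. The genes that follow it on chromosome 18, ELAC1, SMAD4 and MEX3C, also had 0 counts in every PAAD library, while MBD1, CXXC1 and SKA1 on the other side had 2965 to 3675, 1389 to 1600 and 196 to 309 counts there. SMAD4 had 32 to 52 counts per library in COAD, 965 to 1036 in PRAD and 2744 to 2988 in TNBC. These neighbours were chosen after the ME2 values were seen.

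In PRAD, GSTP1, a glutathione transferase, had 0 to 2 counts per library and was not tested. ABCC2, an exporter of conjugates, had 7, 5 and 5 counts in PRAD controls and 18, 13 and 9 with Ocoxin, and in TNBC 2, 2 and 4 against 12, 8 and 8. Both were below the filter on low counts.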
